A study of Arabidopsis thaliana with 12 samples.

Results

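The calcium and ion signalling genes described here are the probe sets that carry 1 annotated gene whose symbol is IQD, CML, GLR, CHX, CAX, CNGC, CPK, CIPK, CBL or ACA followed by a number. This rule uses no measured value, and it gave 31 probe sets for 31 genes, out of 13513 probe sets with 1 gene and 22746 tested. They fall into 4 families: 11 IQD, 7 CML, 7 GLR and 6 CHX genes. The gene table used here lists 174 genes under the 10 symbols, among them 24 IQD, 8 CML, 18 GLR and 22 CHX. The other 6 families (CAX, CNGC, CPK, CIPK, CBL and ACA) gave no member and were not analysed here. A probe set shared by GLR2.2 and GLR2.3 was left out because it names more than a single gene.

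Plant cells read many stimuli, temperature among them, through brief rises of calcium in the cytosol. Glutamate receptor-like proteins (GLR) are channels that let cations, calcium included, cross membranes. Calmodulin-like proteins (CML) bind the calcium that enters, and IQD proteins bind calmodulin and its relatives through their IQ motifs and are mostly found on microtubules, at the plasma membrane or in the nucleus. Cation/proton exchangers (CHX) move potassium and other cations against protons across membranes of the cell and set ion and pH balance.

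Expression was measured on 12 one-colour arrays of whole Arabidopsis thaliana seedlings, 10 days old and raised on agar plates in continuous white light of 80 micromoles per second and square metre. The 4 groups of 3 biological replicates were the wild type Columbia at 16C and at 23C (WT 16C and WT 23C) and the mutant pft1-1, also in Columbia, at 16C and at 23C (pft1-1 16C and pft1-1 23C). PFT1, also called MED25, is a subunit of Mediator, which passes signals from transcription factors on to RNA polymerase, and pft1-1 is a single mutant line, so an effect of PFT1 and other differences between the lines cannot be told apart. Replicates are lettered A to C, and their RNA was prepared independently according to the series' design text.

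Values are log2 expression per probe set as deposited, and differences are log2 differences, so 1 unit is a factor of 2. A difference was called where limma's adjusted p, by Benjamini-Hochberg over all 22746 probe sets, was under 0.05, and ± gives the SD over n = 3 arrays. Levels are read within a probe set only, because probe sets differ in how strongly they bind their transcript. The lower quartile of all values, 2.52, serves as the near-background level. In control probe sets the 4 letter C arrays stood apart from the 8 others. Their spike-in probe sets averaged 4.57 to 8.72 against 2.45 to 2.54, and their 3' minus 5' difference of control transcripts, which reads RNA and labelling quality, was 3.52 to 4.53 against 2.64 to 3.07. Each group holds 1 array of letter C, so values for letters A and B alone are given beside the members' calls. For whole seedlings, fewer cells of a type and less RNA per cell cannot be told apart.

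Of the 31 members, 10 averaged below the near-background level over the 12 arrays. These were IQD16, IQD27, CML37, GLR2.8, GLR2.9, GLR3.5, CHX15, CHX19, CHX21 and CHX6B, and 8 of them lay below it in every group mean. A fall cannot be seen in such probe sets and a rise is understated. The other 21 were 9 IQD, 6 CML, 4 GLR and 2 CHX genes. By family, 4 of 6 CHX and 3 of 7 GLR probe sets were near background, against 2 of 11 IQD and 1 of 7 CML probe sets.

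**Figure D1:**
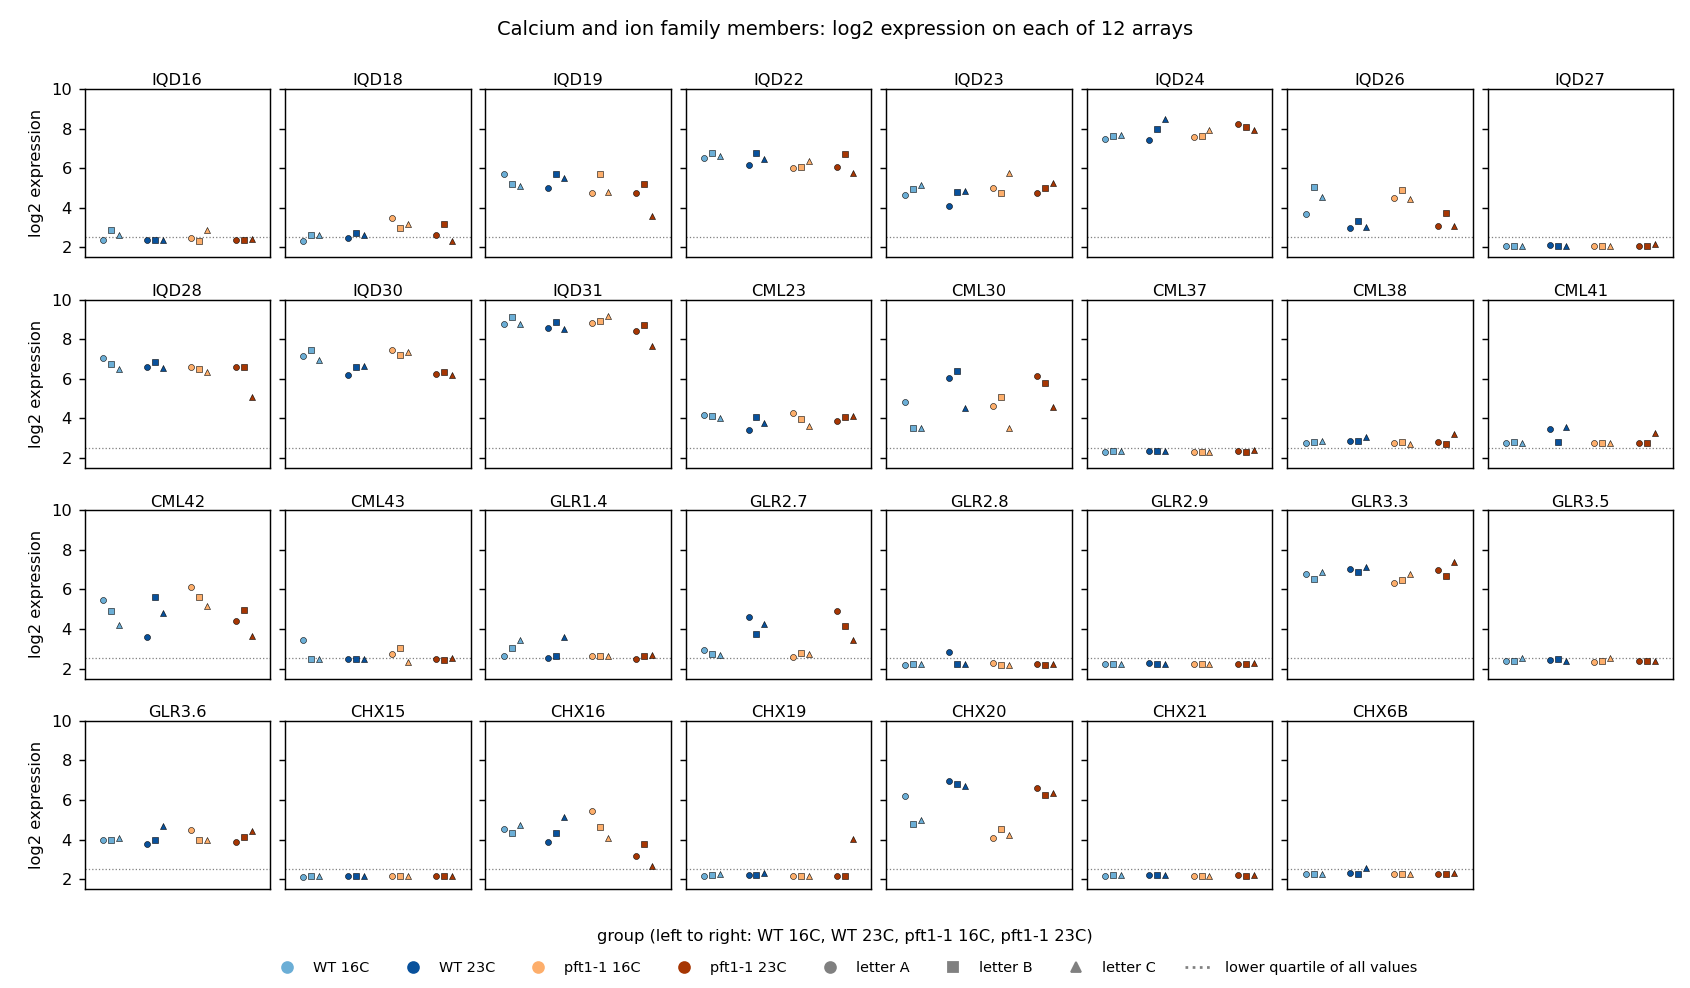
Log2 expression (vertical axes) of the 31 members on each of the 12 arrays, with groups from left to right as WT 16C, WT 23C, pft1-1 16C and pft1-1 23C, symbols for the replicate letters and a dotted line at the near-background level of 2.52. IQD24 and IQD31 sit between 7.43 and 9.19 on all arrays, whereas CHX15, CHX21, GLR2.9 and IQD27 stay under 2.52 on all 12.

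The comparison of 23C with 16C asked which of these genes differ between growth temperatures. In WT, CHX20 and GLR2.7 rose at 23C and IQD30 fell. In pft1-1 the same 3 genes moved in the same directions, and IQD26 and CHX16 fell as well. The members called in WT were 3 of 31 (2 higher and 1 lower), and over all probe sets 4.89% were called, 1.74% higher and 3.15% lower. In pft1-1 5 of 31 members were called (2 higher and 3 lower), against 17.7% of all probe sets, 8.41% higher and 9.27% lower. Averaged over both genotypes 4 of 31 members were called (2 higher and 2 lower), against 23.7% of all probe sets, 11.7% higher and 12% lower. The share of members called was thus 9.68%, 16.1% and 12.9%. Over the 13513 probe sets with 1 gene, from which the members come, it was 4.40%, 15.9% and 21.3%. The pft1-1 share was close to both backgrounds, and 31 members are too few to read a direction from the others. The median difference of the 31 members was 0.02 in WT and 0.02 in pft1-1, next to 0.02 and 0.04 over all probe sets. With only the 6 WT arrays in the fit, all 3 WT calls were lost (limma adjusted p = 0.163 for CHX20, 0.0725 for GLR2.7 and 0.174 for IQD30). The 4 calls averaged over genotypes, CHX20, GLR2.7, IQD26 and IQD30, were each kept when any 1 of the 12 arrays was left out. All these counts come from fits without a replicate block, and the last section describes what changed with it.

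**Figure D2:**
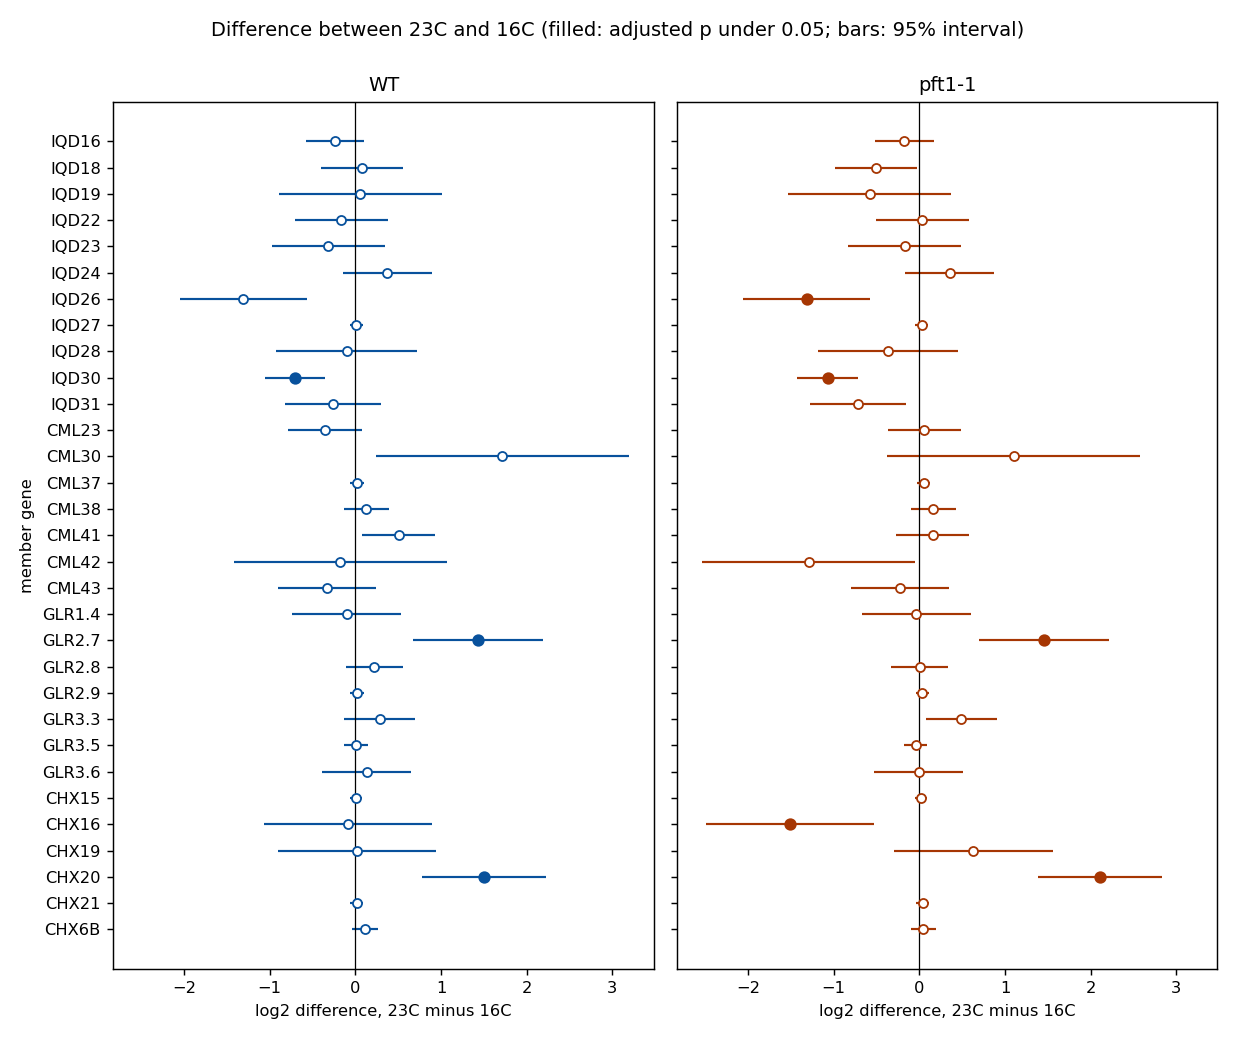
Log2 difference between 23C and 16C (horizontal axes) of each member in WT (left) and pft1-1 (right), with 95% intervals from limma as bars and called members filled. CHX20 and GLR2.7 lie to the right and IQD30 to the left in both panels, and the other intervals in the WT panel that exclude 0 belong to IQD26, CML30 and CML41.

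CHX20 (AT3G53720) is an exchanger known from Arabidopsis guard cells, where it takes part in the osmotic changes that open stomata. Its probe set gave 6.2, 4.79 and 4.99 in WT 16C (letters A, B and C) and 6.96, 6.83 and 6.71 in WT 23C. It gave 4.07, 4.55 and 4.25 in pft1-1 16C and 6.59, 6.23 and 6.36 in pft1-1 23C. In both genotypes all 3 arrays at 23C lay above all 3 at 16C, and replicate A of WT 16C was the high array of its group. The rise was 1.51 (SE 0.32, limma adjusted p = 0.0332) in WT and 2.1 (SE 0.32, limma adjusted p = 0.00346) in pft1-1, which is 2.84 and 4.30 times on a linear scale. By letter it was 0.76, 2.04 and 1.72 in WT and 2.52, 1.69 and 2.11 in pft1-1, positive in all 6 pairs. In letters A and B alone it was 1.40 (limma adjusted p = 0.205) in WT and 2.1 (limma adjusted p = 0.0601) in pft1-1, and averaged over genotypes 1.75 (limma adjusted p = 0.029), beside 1.81 (SE 0.23, limma adjusted p = 0.00085) with all arrays. The WT call was lost on leaving out any 1 of 7 arrays (highest limma adjusted p 0.116, with replicate C of WT 16C left out), and the pft1-1 call was kept without any single array.

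GLR2.7 (AT2G29120) is a channel that, with its neighbours GLR2.8 and GLR2.9, takes part in the calcium influx set off by microbial patterns in Arabidopsis. Its values were 2.96, 2.72 and 2.69 in WT 16C and 4.62, 3.76 and 4.28 in WT 23C. They were 2.58, 2.79 and 2.75 in pft1-1 16C and 4.91, 4.14 and 3.44 in pft1-1 23C. At 16C the gene was close to the near-background level in both genotypes, and every array at 23C lay above every array at 16C. The difference was 1.43 (SE 0.34, limma adjusted p = 0.0453) in WT and 1.46 (SE 0.34, limma adjusted p = 0.0181) in pft1-1. The interaction, pft1-1 minus WT, was 0.02 with a 95% interval from -1.05 to 1.09. Averaged over genotypes the temperature difference was 1.44 (SE 0.24, limma adjusted p = 0.00286). In letters A and B alone it was 1.35 (limma adjusted p = 0.145) in WT, 1.84 (limma adjusted p = 0.0483) in pft1-1 and 1.6 (limma adjusted p = 0.0207) averaged. The WT call was lost on leaving out any 1 of 10 arrays (highest limma adjusted p 0.146, with replicate A of WT 23C left out). The pft1-1 call was lost without replicate A of pft1-1 16C (limma adjusted p = 0.061), and likewise when WT arrays were not fitted (limma adjusted p = 0.0713).

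GLR2.7, GLR2.8 and GLR2.9 are consecutive protein-coding genes in the gene table. GLR2.8 and GLR2.9 gave 2.19 to 2.29 and 2.22 to 2.31 on all arrays, apart from replicate A of WT 23C, where GLR2.8 reached 2.87. That array also held the highest WT value of GLR2.7. Neither neighbour was called in any comparison.

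The remaining channels differed less between temperatures. GLR3.3 and GLR3.6 are needed in Arabidopsis for the electrical and calcium signals that travel from a wounded leaf to others. GLR3.3 (AT1G42540) averaged 6.74 ± 0.19 (SD, n = 3) in WT 16C and 7.02 ± 0.12 (SD, n = 3) in WT 23C, and 6.51 ± 0.24 (SD, n = 3) and 7.01 ± 0.34 (SD, n = 3) in pft1-1. Its difference was 0.28 (SE 0.18, limma adjusted p = 0.5) in WT, 0.49 (SE 0.18, limma adjusted p = 0.101) in pft1-1 and 0.39 (SE 0.13, limma adjusted p = 0.0614) averaged. It was positive in all 6 letter pairs, and with letter C as a block the averaged difference passed (limma adjusted p = 0.0111), as it did with the letters as replicate block (limma adjusted p = 0.0112). GLR3.6 stayed between 3.80 and 4.67, with differences of 0.13 in WT and -0.01 in pft1-1 and 95% intervals from -0.39 to 0.65 and from -0.53 to 0.51. GLR1.4, a channel opened by methionine in frog oocytes, lay at 2.51 to 3.62, and its 2 highest values, 3.46 and 3.62, were the letter C arrays of WT.

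**Figure D3:**
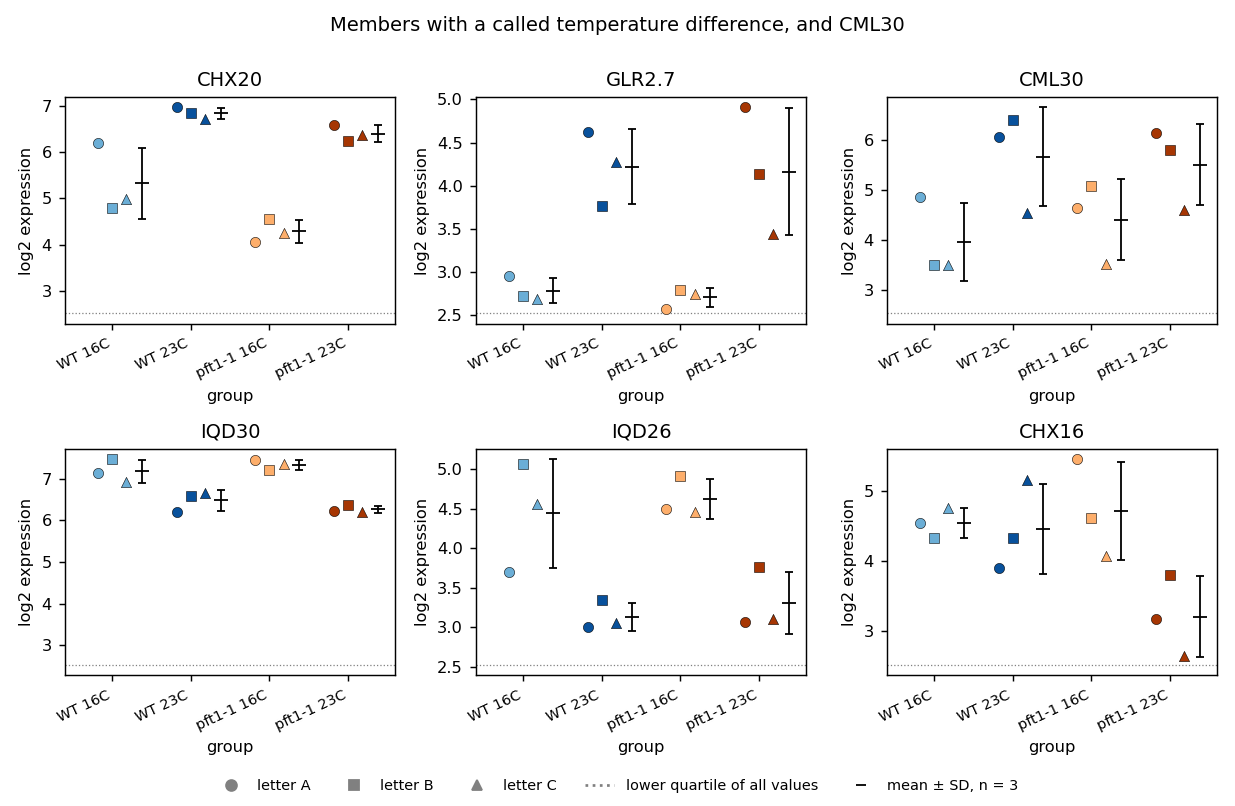
Log2 expression (vertical axes) of CHX20, GLR2.7, CML30, IQD30, IQD26 and CHX16 in each group (horizontal axes), with symbols for the replicate letters and black bars for mean ± SD (n = 3). CHX20, GLR2.7, IQD30 and IQD26 show no overlap between 16C and 23C in either genotype, and CML30 is lowest on the letter C array of each group.

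IQD30 (AT1G18840) fell at 23C in both genotypes. Its values were 7.13, 7.48 and 6.93 in WT 16C and 6.19, 6.58 and 6.66 in WT 23C. They were 7.45, 7.22 and 7.34 in pft1-1 16C and 6.23, 6.37 and 6.2 in pft1-1 23C, where the replicates lay closest together. The groups did not overlap in either genotype. The difference was -0.70 (SE 0.16, limma adjusted p = 0.0383) in WT, -1.07 (SE 0.16, limma adjusted p = 0.00299) in pft1-1 and -0.89 (SE 0.11, limma adjusted p = 0.000845) averaged, and it was negative in all 6 letter pairs. In letters A and B alone it was -0.92 (limma adjusted p = 0.0835) in WT, -1.03 (limma adjusted p = 0.0388) in pft1-1 and -0.98 (limma adjusted p = 0.0136) averaged. The WT call was lost on leaving out any 1 of 10 arrays (highest limma adjusted p 0.118, with replicate B of WT 16C left out), and with an intensity trend in the variance (limma adjusted p = 0.0555), whereas the pft1-1 call was kept without any single array.

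IQD26 (AT3G16490) was lower at 23C by the same amount in both genotypes, and fell by the test in pft1-1 and in the average. It gave 3.70, 5.06 and 4.55 in WT 16C against 3.0, 3.34 and 3.05 in WT 23C. It gave 4.50, 4.91 and 4.45 in pft1-1 16C against 3.06, 3.76 and 3.10 in pft1-1 23C. Replicate A of WT 16C was the low array of its group, and the groups did not overlap in either genotype. The difference was -1.31 in both genotypes, with SE 0.33 and a limma adjusted p of 0.0574 for WT and 0.025 for pft1-1. Its interaction was -0.01 (95% interval -1.06 to 1.04). With the letters as replicate block the temperature difference passed in WT as well (limma adjusted p = 0.0137). Averaged over genotypes it was -1.31 (SE 0.23, limma adjusted p = 0.00411), and in letters A and B alone -1.25 (limma adjusted p = 0.0754), with -1.29 (limma adjusted p = 0.188) in pft1-1. The pft1-1 call was lost without replicate A or B of pft1-1 16C and without replicate A or C of pft1-1 23C, the limma adjusted p reaching 0.085 with replicate A of pft1-1 23C left out.

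The other 9 IQD genes were not called by temperature. IQD31, which averaged 8.90 ± 0.21 (SD, n = 3) in WT 16C and 8.64 ± 0.19 (SD, n = 3) in WT 23C, differed by -0.26 in WT and -0.71 (SE 0.25, limma adjusted p = 0.0808) in pft1-1. By letter the pft1-1 difference was -0.42, -0.18 and -1.53, so most of it came from letter C. Replicate C of pft1-1 23C was also far below its group in IQD19 (3.61 against 4.73 and 5.19) and IQD28 (5.09 against 6.62 and 6.61). Among the 21 members above background that array was lowest of its group for 11, against 38.9% of the 17349 probe sets at such levels. It was the one farthest from the other 2 for 10 members, against 55.9% of those probe sets. Other arrays stood apart for as many members. Replicate A of WT 16C was farthest for 12 of the 21, and replicate A of WT 23C was lowest for 12. Replicate C of pft1-1 16C was farthest for 10. IQD24 went the other way, with 0.37 in WT and 0.36 in pft1-1, and did not pass (limma adjusted p = 0.466 and 0.312). Over the 11 IQD genes the median difference was -0.16 in WT and -0.36 in pft1-1, with 7 and 8 negative. The pft1-1 median is the value of IQD28, whose letter differences were 0.04, 0.14 and -1.27, so it leans on letter C. The family median was not taken for letters A and B alone.

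CHX16 (AT1G64170), another exchanger, was called in pft1-1 and not in WT. It gave 5.46, 4.62 and 4.08 in pft1-1 16C and 3.17, 3.80 and 2.65 in pft1-1 23C, without overlap. In WT it gave 4.54, 4.33 and 4.75 at 16C and 3.90, 4.33 and 5.15 at 23C, which overlap. The difference was -1.51 (SE 0.43, limma adjusted p = 0.0418) in pft1-1 and -0.08 (SE 0.43, limma adjusted p = 0.948) in WT. The test of the difference between genotypes did not pass, with an interaction of -1.43 (SE 0.61, 95% interval -2.81 to -0.05, unadjusted p = 0.0443, limma adjusted p = 0.892). The call in pft1-1 was lost with the letters as replicate block (limma adjusted p = 0.0639), in letters A and B alone (-1.55, limma adjusted p = 0.0621), with arrays quantile normalised again (limma adjusted p = 0.0595), with array quality weights (limma adjusted p = 0.0556) and when WT arrays were not fitted (limma adjusted p = 0.104). It was also lost on leaving out any 1 of 8 arrays (highest limma adjusted p 0.131, with replicate C of pft1-1 23C left out). The remaining 4 CHX genes were near background, and CHX19 left that level on a single array, at 4.03 on replicate C of pft1-1 23C against 2.16 to 2.29 on the other 11.

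None of the 7 CML genes was called by temperature, while 2 had an unadjusted p under 0.05 in WT and 1 in pft1-1. CML30 (AT2G15680) had the largest difference of the family in WT and in the average of both genotypes. Its values were 4.85, 3.50 and 3.49 in WT 16C, 6.05, 6.39 and 4.54 in WT 23C, 4.63, 5.08 and 3.51 in pft1-1 16C and 6.13, 5.80 and 4.58 in pft1-1 23C. In each group the letter C array was the lowest, and within every letter the 23C array exceeded the 16C array of the same genotype, by 0.72 to 2.89. The difference was 1.72 (SE 0.65, limma adjusted p = 0.193) in WT, 1.10 (SE 0.65, limma adjusted p = 0.274) in pft1-1 and 1.41 (SE 0.46, limma adjusted p = 0.0555) averaged. The averaged difference passed with letter C as a block (limma adjusted p = 0.00434), with the letters as replicate block (limma adjusted p = 0.00682) and in letters A and B alone (1.58, limma adjusted p = 0.0352). Leaving out 1 array at a time, its limma adjusted p ran from 0.0231 to 0.12 and passed with replicate A of WT 16C, replicate C of WT 23C or replicate C of pft1-1 23C left out. The WT difference passed in the first 2 of these settings too (limma adjusted p = 0.0267 and 0.0342).

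CML42, which in Arabidopsis takes part in trichome branching and restrains responses to insect feeding, varied widely between replicates. It gave 5.45, 4.91 and 4.20 in WT 16C, 3.62, 5.61 and 4.80 in WT 23C, 6.13, 5.63 and 5.15 in pft1-1 16C and 4.42, 4.95 and 3.67 in pft1-1 23C. The pft1-1 groups did not overlap and differed by -1.29 (SE 0.55, limma adjusted p = 0.142), while in WT the letter differences were -1.83, 0.70 and 0.61. CML23, a sensor that acts with CML24 in flowering time and nitric oxide balance, averaged 4.11 ± 0.07, 3.76 ± 0.34, 3.96 ± 0.31 and 4.02 ± 0.13 (SD, n = 3) in WT 16C, WT 23C, pft1-1 16C and pft1-1 23C, and its differences were -0.35 in WT and 0.06 in pft1-1. CML41, known for callose closure of plasmodesmata in defence, gave 2.77 to 2.79 on all 6 arrays at 16C and left that range at 23C on 4 arrays, with 3.47, 2.83 and 3.55 in WT and 3.26 on replicate C of pft1-1. Its WT difference of 0.51 (SE 0.19, limma adjusted p = 0.183) did not pass. The stress-responsive sensors CML37 and CML38, linked to herbivory and to low oxygen, stayed at 2.30 to 2.41 and 2.69 to 3.21. CML43 was above 2.52 only on 4 arrays, replicate A of WT 16C at 3.46, replicates A and B of pft1-1 16C at 2.75 and 3.07, and replicate C of pft1-1 23C at 2.53.

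Without regard to size, the 2 temperatures did not overlap for 9 of 31 members in WT, against 26.0% of all probe sets, and for 14 of 31 in pft1-1, against 47.9%. Near-background members made up 3 of the 9 (CML37, GLR2.9 and CHX6B) and 7 of the 14 (IQD27, CML37, GLR2.9, CHX15, CHX19, CHX21 and CHX6B).

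The comparison of pft1-1 with WT asked whether these genes differ between mutant and wild type at each temperature. In limma 0 of 31 members were called at 23C (1 with an unadjusted p under 0.05), 0 at 16C (2 with an unadjusted p under 0.05) and 0 in the average of both (3 with an unadjusted p under 0.05). Over all probe sets 0.0220%, 0.0352% and 0.0572% were called, so few calls were made anywhere. The differences with an unadjusted p under 0.05 belonged to CHX16 at 23C, to IQD18 and CHX20 at 16C and to IQD18, IQD22 and CHX20 in the average.

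CHX20 had the largest averaged difference between genotypes, -0.74 (SE 0.23, 95% interval -1.25 to -0.23, limma adjusted p = 0.612). Using the values given above, all 3 pft1-1 arrays lay below all 3 WT arrays at both temperatures. The difference was -1.04 (SE 0.32, limma adjusted p = 0.714) at 16C and -0.44 (SE 0.32, limma adjusted p = 0.853) at 23C. By letter it was -2.13, -0.24 and -0.74 at 16C and -0.37, -0.60 and -0.35 at 23C, and the first of these came from the high replicate A of WT 16C. Without that array the averaged difference was -0.52.

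IQD18 lay near background in WT 16C (2.31, 2.62 and 2.61) and higher in pft1-1 16C (3.47, 3.0 and 3.17), without overlap. It differed by 0.70 (SE 0.21, limma adjusted p = 0.69) at 16C and by 0.11 at 23C. IQD22 gave 6.52, 6.76 and 6.60 in WT 16C and 6.0, 6.04 and 6.35 in pft1-1 16C, also without overlap, differing by -0.50 (SE 0.24, limma adjusted p = 1). The largest averaged difference of the IQD family was that of IQD19, -0.57 (SE 0.30, limma adjusted p = 0.897), which came to -0.34 without replicate C of pft1-1 23C. In the GLR family it was that of GLR1.4, -0.36 (SE 0.20, limma adjusted p = 0.914), which came to -0.18 without replicate C of WT 23C. In the CML family it was that of CML42, 0.23 (SE 0.39, limma adjusted p = 1), which came to -0.037 without replicate A of WT 23C and to 0.46 without replicate B of WT 23C. CHX16 at 23C, with 3.90, 4.33 and 5.15 in WT and 3.17, 3.80 and 2.65 in pft1-1, differed by -1.25 (SE 0.43, 95% interval -2.23 to -0.27, limma adjusted p = 0.555), without overlap of the groups.

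The genotypes did not overlap for 2 of 31 members at 23C (CHX16 and CHX20), against 7.95% of all probe sets, and for 4 of 31 at 16C (IQD18, IQD22, CHX20 and CHX6B), against 12.8%. A call that was missed does not show equal levels. Among the 21 members above background the 95% interval of the averaged difference stayed within 1 unit of 0 for 15, and its farthest bound was 1.25, for CHX20. At single temperatures the bounds reached 2.23 at 23C, for CHX16, and 2.03 at 16C, for CML42.

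**Figure D4:**
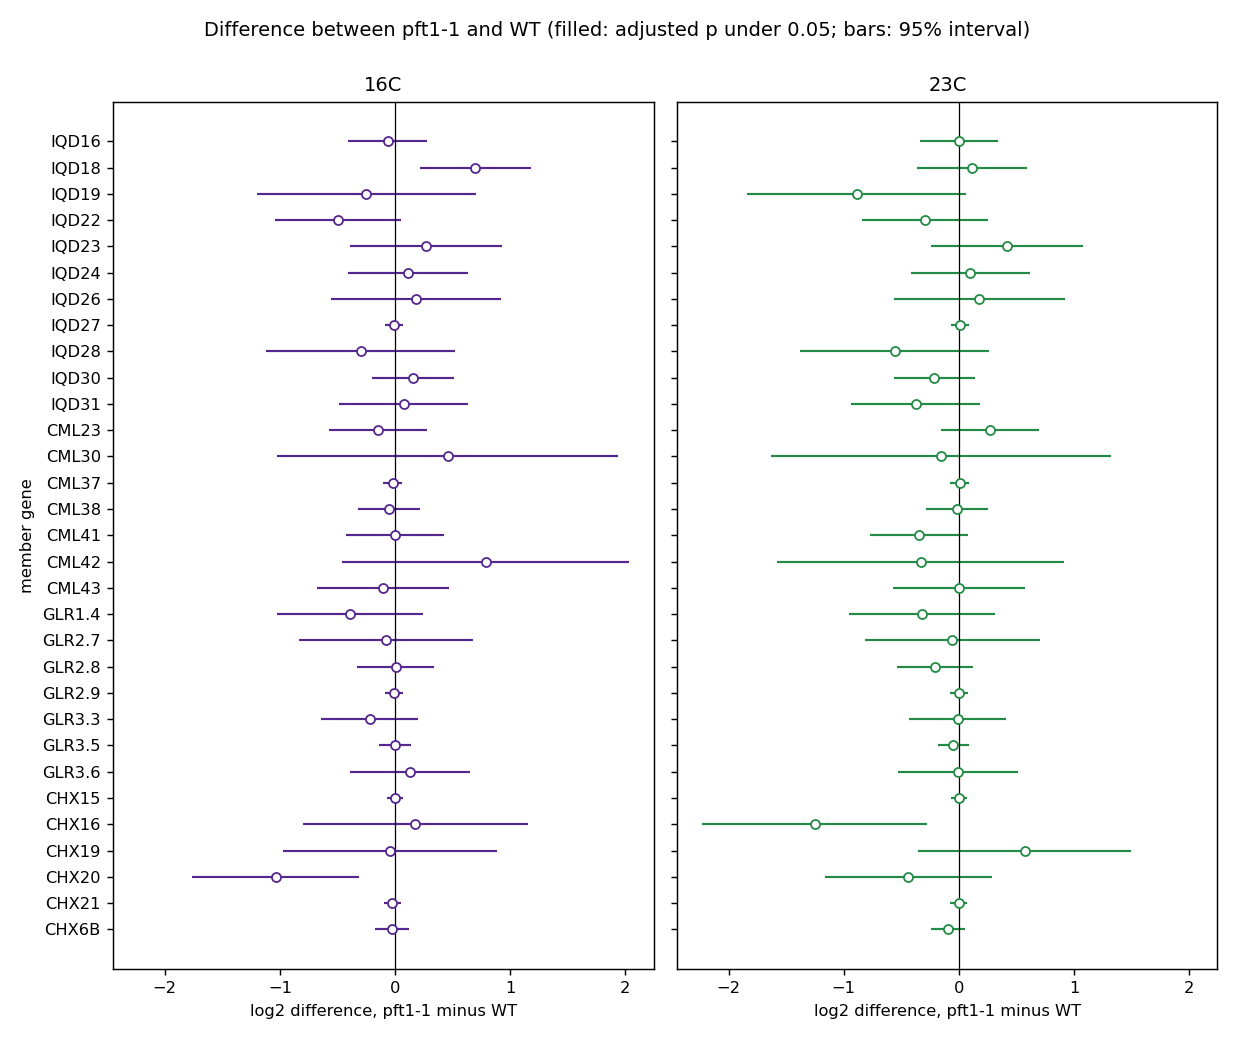
Log2 difference between pft1-1 and WT (horizontal axes) of each member at 16C (left) and 23C (right), with 95% intervals from limma as bars. No member is filled, since 0 of 31 were called at either temperature, and CHX20 lies to the left of 0 in both panels.

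The interaction asked whether the temperature difference of a gene differs between pft1-1 and WT. In limma 0 of 31 members were called (1 with an unadjusted p under 0.05, CHX16), against 0% of all probe sets. For CHX20 the interaction was 0.60 (95% interval -0.43 to 1.62) and for IQD30 -0.37 (95% interval -0.87 to 0.13). The calls of IQD26 and CHX16 in pft1-1 and not in WT therefore show no tested difference between the genotypes.

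Other genes of calcium handling were found in the annotation by name. The list of pathway genes, matched by symbol, gave 1 gene, CRT1b, a calreticulin that buffers calcium and folds proteins in the endoplasmic reticulum. Genes annotated under another name were not found by this match. It averaged 10.81 ± 0.26 (SD, n = 3) in WT 16C, 9.68 ± 0.13 (SD, n = 3) in WT 23C, 10.97 ± 0.08 (SD, n = 3) in pft1-1 16C and 9.68 ± 0.40 (SD, n = 3) in pft1-1 23C. It fell by 1.14 (SE 0.20, limma adjusted p = 0.0154) in WT and by 1.29 (SE 0.20, limma adjusted p = 0.00345) in pft1-1. A further 10 relatives were picked after the members' values had been seen: iqd15, iqd21, iqd32, iqd33, chx28, ATGLR1.2, ACA.l, CML39 (listed as AT1G76640), the sodium/calcium exchanger NCL (AT1G53210) and CaS, a calcium sensor of chloroplasts. Of these NCL alone was called by temperature, with 10.64 ± 0.24 and 11.02 ± 0.31 (SD, n = 3) in WT at 16C and 23C and 10.34 ± 0.34 and 11.36 ± 0.10 (SD, n = 3) in pft1-1. It rose by 1.02 (SE 0.20, limma adjusted p = 0.0103) in pft1-1 and by 0.70 (SE 0.14, limma adjusted p = 0.00823) averaged over genotypes. Its WT difference of 0.38 did not pass, and its interaction was 0.64 (SE 0.29, limma adjusted p = 0.904). In letters A and B alone CRT1b differed by -1.36 (limma adjusted p = 0.0323) in WT and -1.46 (limma adjusted p = 0.0163) in pft1-1. NCL differed there by 0.99 (limma adjusted p = 0.0663) in pft1-1 and by 0.73 (limma adjusted p = 0.0436) averaged. Of all 11 genes, 1 was called by temperature in WT and 2 in pft1-1, beside 4.89% and 17.7% of all probe sets, and 0 between genotypes in limma.

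The labelled tissue was checked against markers. The 4 measured green tissue markers of 14 listed (RCA, LHCB4.1, rbcL and psbA) lay at 8.63 to 14.8, and the 3 measured pollen markers of 12 listed (ACT12, ANX1 and ANX2) at 2.01 to 2.80. The 3 measured root markers of 12 listed (PYK10, EXPA7 and EXPA18) had lower means at 23C in both genotypes, beside the temperature results above. PYK10, a root and hypocotyl glucosidase, averaged 13.05, 12.47, 12.78 and 11.85 in WT 16C, WT 23C, pft1-1 16C and pft1-1 23C, an averaged difference of -0.75 (limma adjusted p = 0.0181). The root hair expansins EXPA18 and EXPA7 had averaged differences of -1.83 (limma adjusted p = 0.047) and -1.51 (limma adjusted p = 0.133), and both averaged below 2.52 at 23C. EXPA7 gave 5.42, 2.04 and 2.34 in WT 16C (letters A, B and C), so its WT difference rests mainly on replicate A. In pft1-1 16C EXPA7 gave 5.07, 4.65 and 2.24. With letter C left out, the averaged difference was -0.73 (limma adjusted p = 0.05) for PYK10 and -2.51 (limma adjusted p = 0.0227) for EXPA18. The summed level of the root markers, in log2 units and set almost wholly by PYK10, whose probe set reads far higher, ranged over 12.9 to 13.3 in WT 16C, 12.3 to 12.8 in WT 23C, 12.3 to 13.2 in pft1-1 16C and 11.4 to 12.3 in pft1-1 23C. Their part in the temperature differences was not tested. Of the green markers, psbA alone was called, 0.72 higher at 23C in pft1-1 (limma adjusted p = 0.0443, and 0.276 in letters A and B alone). The summed green markers, set mostly by RCA and LHCB4.1, lay at 15.4 to 15.7 in every group. The sum says little of rbcL, which ran from 8.63 to 11.2. Its temperature difference was 0.36 (limma adjusted p = 0.828) in WT and 1.19 (limma adjusted p = 0.144) in pft1-1.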

How the data were processed

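RNA of 12 seedling samples (5 ug total RNA each) was hybridised to 1-colour 3' arrays. The authors deposited log2 expression per probe set, and the submitters' processing notes name RMA and the affy package. Array medians were 5.07 to 5.25, and no arrays were identical. The deposited values were not normalised again. After leaving out 64 control probe sets, limma 3.58.1 in R 4.3.3 was fitted to 22746 probe sets and 12 arrays with 4 group means, without a block, and empirical Bayes moderation, and p-values were adjusted by Benjamini-Hochberg. The fit was tested on simulated data. The number of arrays limits the precision. Gene names come from the platform annotation. All 31 member symbols matched the RefSeq gene table of TAIR10.1, which gave the locus tags. PFT1 was not analysed here.

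Named genes were the called members, in each family the member with the highest mean and those with the largest averaged temperature and genotype differences, and others are described by role. The highest mean only picks a gene to name and compares no levels between probe sets. Members and lists were chosen with earlier results of these data known. Replicate letters were counted as pairing arrays where the deviations from group means correlated above 0.1 for every letter. This held for temperature in WT (0.42, 0.27 and 0.53), temperature in pft1-1 (0.20, 0.20 and 0.34) and genotype at 23C (0.13, 0.47 and 0.16), not for genotype at 16C (0.36, -0.10 and 0.47). The reported fit held no block, so its calls do not use this pairing, and the replicate block was run as an alternative. Alternatives included the replicate block, a block for letter C, leaving out letter C, an intensity trend, median centring, quantile normalisation, array weights, a filter on low values, stricter thresholds and leaving out each array.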

Additional observations from a re-analysis of the deposited data

How the results depend on the processing

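Counts of members called by temperature moved with the fit. In none of the alternatives tried did limma call a tested member for genotype or for the interaction (1 to 3 with an unadjusted p under 0.05 in the fit reported). In WT, 3 calls became 5 with the replicate block, 5 with array quality weights, 0 with letters A and B alone, 0 with only the arrays compared, 0 at an adjusted p under 0.01 and 0 to 2 when an array was left out. In pft1-1, 5 calls became 2 with letters A and B alone, 3 with only the arrays compared, 2 at an adjusted p under 0.01 and 2 to 8 when an array was left out, with 8 without replicate B of pft1-1 23C. Averaged over genotypes, 4 calls became 7 with arrays centred on their medians, 6 with the replicate block, 6 with letter C as a block and 4 to 6 when an array was left out. Centring moved the median of all probe sets by 0.07 in WT, 0.10 in pft1-1 and 0.09 averaged, and gave 2 higher and 2 lower members in WT (2 and 1 as reported) and 5 higher and 2 lower averaged (2 and 2 as reported). The replicate block gave IQD26 in WT a call (limma adjusted p = 0.0137) and took that of CHX16 in pft1-1 (limma adjusted p = 0.0639). The averaged genotype difference of CML42 turned from 0.23 to -0.037 without replicate A of WT 23C, ranged from -0.037 to 0.46 when an array was left out, and passed in no fit. The cause of these changes was not tested. A tally under alternatives covered only the called differences and the largest averaged differences of each family. Of these values 319 kept direction and side of the threshold, 64 lost the call, 11 gained it and 1 turned. All 11 gains were of CML30 averaged over genotypes, and gains of other differences, such as IQD26 in WT, were not in the tally. The 319 include differences not called in the fit reported, which could not lose a call. The WT calls were lost in 15 of 24 alternatives for IQD30, 13 of 23 for GLR2.7 and 10 of 24 for CHX20. In pft1-1 the call was lost in 0 of 24 for IQD30, 1 of 24 for CHX20 and 14 of 24 for CHX16. Stricter thresholds were applied to the same fit, so some of these losses were fixed in advance. An adjusted p under 0.01 had to take the 3 WT calls and that of CHX16. A log2 difference of at least 1 had to take that of IQD30 in WT. The filter on low values left 15 of 31 members to test, without GLR2.7 and GLR1.4. Counting lower-case iqd and chx symbols as members, chosen after seeing the data, changed no count. Signal near background limits 10 of the 31 probe sets.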
